A study of Mus musculus with 2 samples.

Results

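The genes described here are 10 that have been tied to the fusion of osteoclast precursors, namely Dcstamp, Ocstamp, Cd9, Cd81, Cd47, Sirpa, Adam8, Adam12, Cd44 and Itgae. They were chosen by name and not by a measured value, out of 14887 genes with an assembled locus in at least 1 of the libraries. Earlier results of these data were known when the genes were chosen. Marrow cells of WT (wild-type) mice received M-CSF alone (M) or M-CSF together with RANKL (MR), and total RNA of each culture was sequenced as 1 library. Per the labels, M-CSF was given for 2 days, and RANKL was present together with M-CSF over the following 2 days. This text is the same for both libraries and does not say how long the M culture was kept, and the culture method of the study gives a longer time with RANKL. No allele other than WT is given for either culture, and the number and age of the mice are not given in the sources used here. With 1 library per condition, no difference below has a replicate check and no p-value was computed. The intervals given cover counting error only.

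An osteoclast is a multinucleated cell that resorbs bone and arises when mononuclear precursors of the monocyte and macrophage lineage join their membranes. M-CSF keeps these precursors alive and dividing, and RANKL turns them towards the osteoclast. The membrane proteins DC-STAMP and OC-STAMP are needed for the joining, whereas tetraspanins, immunoglobulin-like receptors, adhesion receptors and ADAM metalloproteases have been described as proteins that bring cells into contact or set the number of cells that fuse.

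The depth and the makeup of the libraries were examined first. The FPKM values in the tables correspond to an estimated 3.63 Gb of aligned bases in M and 2.98 Gb in MR. The estimate for M is above the approximate amount of raw reads that the study states for each sample. All 8 osteoclast markers were higher in MR, with a summed level of 126 TPM (transcript abundance scaled to a fixed total per library) in M and 24674 in MR, and 3 of them, Calcr, Oscar and Car2, had no assembled locus in M. Macrophage markers were present in both libraries, with a sum of 21457 TPM in M and 7937 in MR over 7 genes. Lyz2, whose locus was shared with another gene, made up 16035 and 4535 of these sums. Fcgr1 went from 1158 TPM in M to 60.5 in MR, Adgre1 from 681 to 148 and Mertk from 108 to 15.8. Cd68 had 2607 and 2171 TPM, Csf1r 697 and 872, and Itgam, also with a shared locus, 171 and 135. Of the lists for other cells, neutrophil markers summed to 1384 TPM in M and 965 in MR over 8 genes, and megakaryocyte and platelet markers to 556 and 98.8 over 6 genes, of which Pf4 made up 505 and 38.4. Markers of T and NK cells, B cells, dendritic cells, erythroid cells, stromal cells, and mast cells and basophils summed to between 3.35 and 24.4 TPM in M and between 2.11 and 42.9 in MR. In these bulk cultures, fewer cells of a type and less RNA per cell cannot be told apart.

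Of the 10 fusion genes, 7 had an assembled locus in both libraries, 2 had one in MR alone, and Adam12 had none in either. The 9 genes with a locus all passed the filter on low values, which asked for 1 TPM or more in M or MR. As a rule of size, a gene was said to rise or fall when the log2 ratio of MR to M, taken after adding 1 to each TPM, was above 1 or below -1. By this rule 4 genes rose (Dcstamp, Ocstamp, Cd9 and Itgae), 3 fell (Cd81, Cd47 and Adam8), and Sirpa and Cd44 stayed within 1 of 0. The call for Itgae was lost when its locus of highest TPM was taken alone or its loci were averaged, which left 3 genes that rose, and Sirpa joined the genes that fell under 2 other scalings, which made them 4. Among the 13390 genes tested that had a locus not shared with another gene, 21.1% rose, 13.0% fell and 65.9% stayed within these limits. With limits of 2 and -2, Dcstamp and Ocstamp rose and Cd81 and Adam8 fell, and the shares of all genes were 6.98% and 3.75%. The median log2 ratio of the 9 fusion genes was 0.10, against 0.21 for all genes tested, and their values ran from -2.35 for Cd81 to 8.14 for Dcstamp. The median of the fusion genes changed sign under 4 alternatives, the lowest value being -0.39, so that no direction is given for it. The fusion genes therefore did not move as a group in 1 direction.

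**Figure D1:**
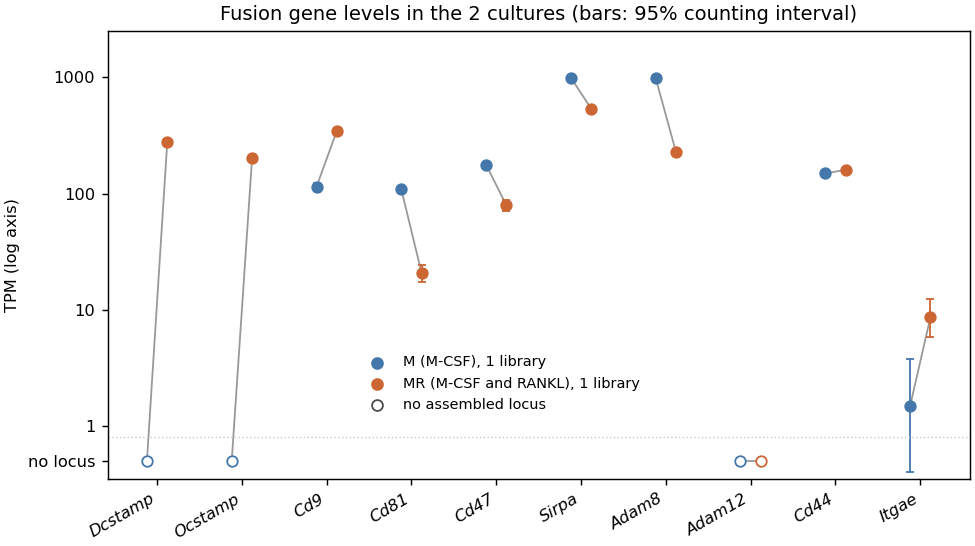
Level of each fusion gene in TPM (log axis) in the M library (blue) and the MR library (orange), with 95% counting intervals as bars and open circles for genes without an assembled locus. Dcstamp and Ocstamp appear in MR alone, Cd9 is higher in MR (347 against 114 TPM), and Cd81 and Adam8 are lower in MR (20.5 against 109 and 227 against 986 TPM).

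Dcstamp encodes DC-STAMP, a multipass membrane protein without which precursors stay mononuclear. It lies at chr15:39745930-39760938 on the plus strand of GRCm38. No locus was assembled there in M, and in MR the level was 280 TPM (counting interval 267 to 294), above 96.2% of all genes tested. The MR locus held 98.9% of the annotated exon bases, and its 5′ end lay 12 bases inside the annotated start of the gene. Ocstamp encodes OC-STAMP, a related membrane protein that is also needed for fusion, at chr2:165393760-165400405 on the minus strand. It had no locus in M and a level of 202 TPM in MR (195 to 209), with 99.8% of its exon bases in the locus. The MR values correspond to about 1694 read pairs for Dcstamp and 3268 for Ocstamp.

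Both STAMP genes thus had no assembled locus in M and a level within the top part of all genes in MR. Loci do not appear in the tables when their reads are too few to be assembled, and 5% of the loci of M had a TPM below 0.148. A gene listed at 0 in M allows no fold change, and the log2 ratios of 8.14 for Dcstamp and 7.67 for Ocstamp rest on the added 1. With 0.1 added in place of 1 they were 11.45 and 10.98. Of 1560 genes at 100 TPM or more in MR, 15 had no locus in M, which is 0.962%. The fusion genes at this level in MR were 6, of which 2 had no locus in M. In MR the level of Dcstamp was 1.39 times that of Ocstamp.

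**Figure D2:**
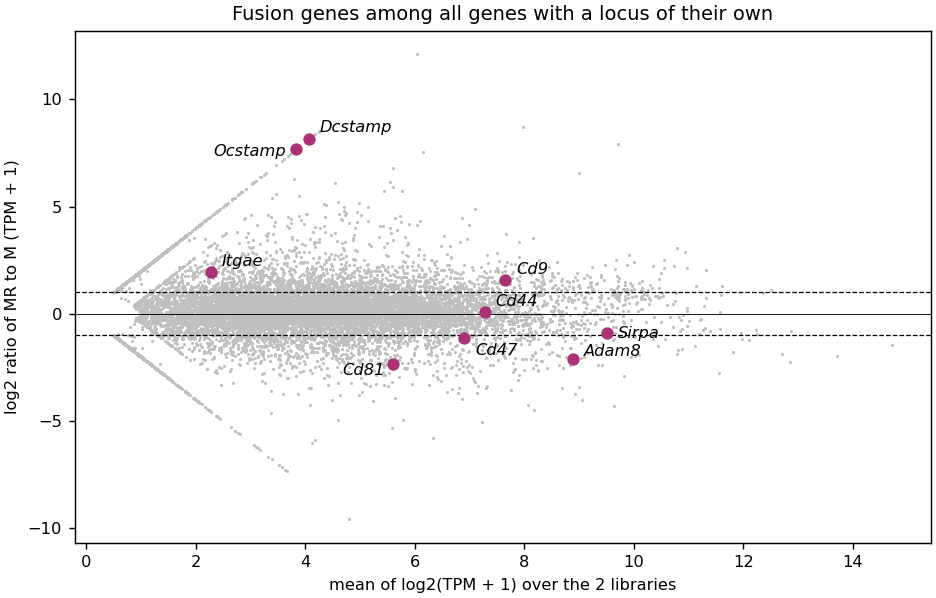
The log2 ratio of MR to M against the mean level of each gene, with all genes that had a locus of their own in grey, the fusion genes in purple and the limits of 1 and -1 as dashed lines. Dcstamp and Ocstamp lie on the upper diagonal, which is formed by genes without a locus in M, and Cd81 and Adam8 lie among the low ratios at moderate and high levels.

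Cd9 and Cd81 encode tetraspanins, proteins with 4 membrane spans that gather other receptors into patches of the membrane. Cd9 lies at chr6:125460266-125494791 on the minus strand. Its level was 114 TPM in M (107 to 123) and 347 TPM in MR (332 to 363), a ratio of MR to M of 3.04 (2.79 to 3.30), so that it rose. Cd81 lies at chr7:143052739-143067934 on the plus strand, and its level was 109 TPM in M (102 to 116) and 20.5 TPM in MR (17.3 to 24.3). It fell, with an M level 5.29 times that of MR (4.42 to 6.32).

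The pair therefore stood at nearly the same level in M and apart in MR. In M, Cd9 was at 1.05 times the level of Cd81 and their counting intervals overlapped, whereas in MR it was at 16.9 times that level. The summed level of the pair was 223 TPM in M and 368 TPM in MR, of which Cd9 made up 51.3% and 94.4%. Between the libraries, the locus ends differed by 30 bases at the 5′ side and 164 at the 3′ side for Cd9, and by 3 and 21 bases for Cd81. The Cd9 locus held 94.7% of the exon bases in M and 88.2% in MR. Cd9 is also abundant in platelets and their precursors, whose marker list had a lower sum in MR, as given above. In M that sum was mostly Pf4. Of the 6 markers 4 were lower in MR and 2 higher, namely Ppbp (22.4 and 27.3 TPM) and Vwf (15.7 and 26.0). The lower ones were Pf4 (505 and 38.4 TPM), Itga2b (8.83 and 5.16), Gp9 (2.29 and 2.02) and Gp1bb (2.53 and no locus). The part of these cells in the Cd9 values was not tested. On the other strand, Gm26728 shares 218 exon bases with Cd9, and R74862 shares 104 with Cd81, and the library kit does not mark the strand, so that reads in these stretches cannot be told apart.

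The bases upstream of the gene start are shown for 4 fusion genes that are held in the RefSeq promoter table of GRCm38.p6 and whose assembled 5′ ends lay within 198 bases of the RefSeq start in both libraries. They include a gene that rose (Cd9), genes that fell (Cd81 and Adam8) and a gene that stayed within the limits (Cd44). Each is written 5′ to 3′ in the direction of the gene and ends at the base before the annotated start in GENCODE vM21, and capitals mark a match to 1 of the 5 motifs searched.
Cd9 (chr6:125494792-125495010, minus strand): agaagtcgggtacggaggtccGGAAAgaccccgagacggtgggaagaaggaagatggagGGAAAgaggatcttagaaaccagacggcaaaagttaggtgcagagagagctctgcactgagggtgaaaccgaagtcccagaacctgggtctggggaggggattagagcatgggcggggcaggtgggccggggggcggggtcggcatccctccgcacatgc
Cd81 (chr7:143052500-143052738, plus strand): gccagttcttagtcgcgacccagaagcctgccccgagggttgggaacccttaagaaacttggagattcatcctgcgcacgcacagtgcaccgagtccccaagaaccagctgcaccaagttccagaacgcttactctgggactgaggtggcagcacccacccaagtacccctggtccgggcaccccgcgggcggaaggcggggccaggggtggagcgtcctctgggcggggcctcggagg
Adam8 (chr7:139992563-139992812, minus strand): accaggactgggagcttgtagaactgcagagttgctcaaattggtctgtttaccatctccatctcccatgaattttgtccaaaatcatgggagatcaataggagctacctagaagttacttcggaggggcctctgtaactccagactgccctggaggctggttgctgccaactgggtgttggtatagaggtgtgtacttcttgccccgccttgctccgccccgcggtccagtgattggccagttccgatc
Cd44 (chr2:102901666-102901915, minus strand): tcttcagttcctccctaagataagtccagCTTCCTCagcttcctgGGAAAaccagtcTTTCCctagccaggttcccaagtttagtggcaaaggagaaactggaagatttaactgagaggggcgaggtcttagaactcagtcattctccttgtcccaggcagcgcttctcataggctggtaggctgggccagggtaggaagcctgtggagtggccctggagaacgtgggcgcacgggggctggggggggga

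The motifs were searched on both strands in the 250 bases before each RefSeq start. The NFAT core GGAAA had 2 matches in Cd9, at 229 and 191 bases before the RefSeq start, and 2 in Cd44, at 205 and 193 bases before it. It had 0 matches in Cd81 and Adam8, and 55.6% of all 32851 promoter windows of this length held it. The PU.1 motif GAGGAAG had 1 match, in Cd44, and did not overlap those of the NFAT core there, against 10.6% of all windows. The AP-1 motif TGANTCA, the NF-kappaB motif (searched with its central bases free) and the MITF motif CACGTG had 0 matches in these 4 windows, against 6.75%, 1.21% and 6.02% of all windows. These are matches of letters and not measured sites.

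Other tetraspanins and the immunoglobulin-like partners of CD9 and CD81 were set beside the pair. Of 29 other tetraspanin genes in the annotation, 20 were tested. Of these, 7 (35%) rose and 2 (10%) fell, against 21.1% and 13.0% of all genes tested. The median log2 ratio of these tetraspanins was 0.26. The number that rose was 3 or 4 under 5 of the alternatives, and the median was -0.18 under a filter of 10 TPM and -0.14 when an unshared locus was required in both libraries. Cd53, a leukocyte tetraspanin, fell from 675 TPM in M to 128 in MR, and Tspan13 fell from 18.9 to 3.09. Tspan3 had 89.9 and 51.8 TPM, within the limits. Tspan7 rose from 0.805 to 24.2, Tspan5 from 4.90 to 23.5, and Cd82 from 55.3 to 136 TPM. The other tetraspanins that rose (Tspan2, Tspan8, Tspan10 and Tspan18) had no locus in M and at most 4.05 TPM in MR. Cd63, a lysosomal tetraspanin, had the highest level of the tetraspanins tested, with 882 TPM in M and 1297 in MR. These 4 genes, Cd63 and Ptgfrn were named after their values were seen. Igsf8, which encodes a direct partner of CD9 and CD81, fell from 139.8 to 63.2 TPM, whereas Ptgfrn, which encodes the other partner tested, rose from 1.74 to 8.64 TPM.

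**Figure D3:**
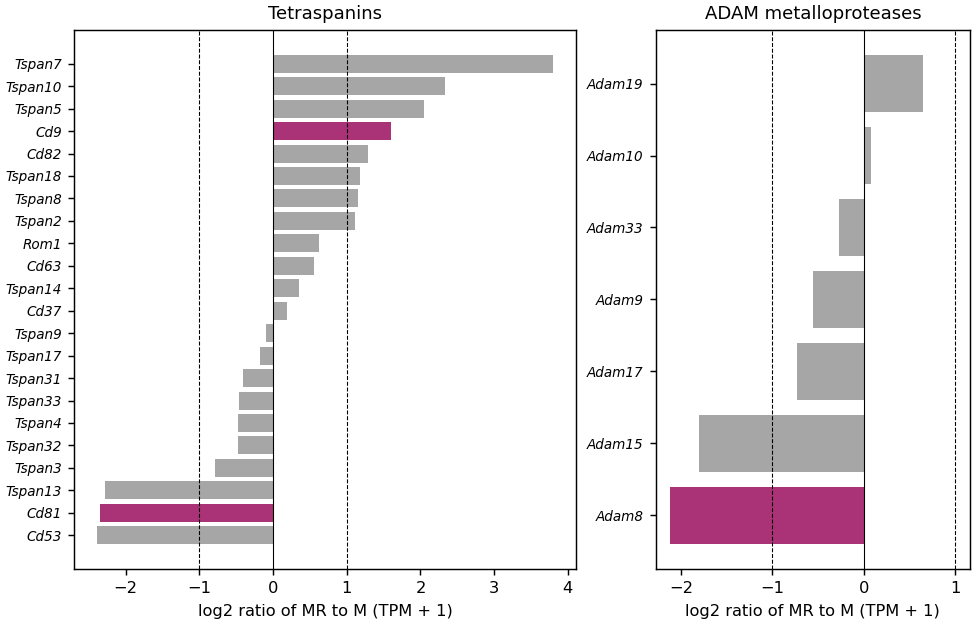
Log2 ratios of MR to M for each tested tetraspanin (left) and ADAM gene (right), with the fusion genes in purple, other members in grey and the limits of 1 and -1 as dashed lines. Cd9 lies among the tetraspanins that rose and Cd81 between Tspan13 and Cd53 among those that fell, whereas Adam8 has the lowest ratio of the ADAM genes shown.

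Cd47 and Sirpa encode a pair of surface proteins that bind each other across cells. CD47 is an integrin-associated protein, and SIRPα, its receptor on macrophages, signals through the phosphatases SHP-1 and SHP-2. Cd47 lies at chr16:49800533-49915010 on the plus strand, and its level was 177 TPM in M (166 to 188) and 79.1 in MR (71.2 to 87.7). It fell, with an M level 2.23 times that of MR (1.98 to 2.52). The Cd47 loci began 609 bases upstream of the nearer RefSeq start in M and 516 bases upstream of it in MR, and neither reached the first annotated exons of the gene. Sirpa lies at chr2:129592835-129632228 on the plus strand, and its level was 994 TPM in M (980 to 1008) and 537 in MR (526 to 549).

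The log2 ratio of Sirpa was -0.89, which stays within the limit of -1. It crossed this limit with median-of-ratios scaling, at -1.08, and when the mitochondrial genes and the 20 genes of highest level were left out, at -1.02. Sirpa kept the highest level of the 10 genes in both libraries, and stood at 5.63 times the level of Cd47 in M and 6.79 times in MR. The related genes Sirpb1a and Sirpb1c, which could share reads with Sirpa, fell from 42.4 to 10.8 TPM and from 282 to 47.0 TPM, so that the split between these genes is uncertain. Sirpb1c had a locus shared with another gene. Sirpb1b was covered by a neighbour's locus in M, with no level of its own, and had 12.5 TPM in MR.

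Partners of this axis were tested as a list of 5 genes, of which 0 rose and 2 fell. The shares of all genes tested were 21.1% and 13.0%. Thbs1, which encodes the CD47 ligand thrombospondin-1, fell from 76.6 TPM in M to 20.1 in MR, and Fyb, which encodes an adaptor of immune cells, fell from 259 to 56.0. Ptpn6 (SHP-1) had 575 TPM in M and 388 in MR, Ptpn11 (SHP-2) had 32.9 and 39.9, and the adaptor gene Skap2 had 223 and 141.4. These 3 genes stayed within the limits.

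Adam8 and Adam12 encode membrane-bound proteases with a disintegrin domain. Adam8 lies at chr7:139978932-139992562 on the minus strand. Its level was 986 TPM in M (969 to 1003) and 227 TPM in MR (218 to 236). It fell, with an M level 4.35 times that of MR (4.16 to 4.54), and its ratio was lower than that of all but 3.16% of the genes tested. In TPM, its counting interval in M overlapped that of Sirpa at the head of the order, and in MR it came after Sirpa, Cd9 and Dcstamp.

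The Adam8 locus of MR ended at position 139975830, past the annotated 3′ end at 139978932, and took in the neighbouring gene 6430531B16Rik, so that the MR value may include reads of that gene. In M, where the Adam8 locus ended 26 bases inside the annotated end, 6430531B16Rik had a locus of its own with 1.58 TPM. In MR a separate level was also assigned to 6430531B16Rik, and it was lower than in M. The part of this gene in the Adam8 value of MR was not tested. In listed coverage per aligned Gb the log2 ratio of Adam8 was -2.57, against -2.12 in TPM.

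Adam12, at chr7:133883199-134232146 on the minus strand, is expressed by many stromal cells. No locus overlapped it in M or MR, so that it was not detectable at the depth of these libraries. Of 11 other ADAM genes, 6 were tested, of which 0 rose and 1 fell, against 21.1% and 13.0% of all genes tested. Adam15 fell from 167 TPM in M to 47.3 in MR. Adam9 had 130.02 and 88.1 TPM, Adam17, a sheddase of cytokine precursors, had 133 and 79.6, and Adam10 had 80.3 and 84.9, all within the limits. The genes of proteins that bind ADAM8 or ADAM12 differed among themselves. Sdc4 (syndecan-4) rose from 18.4 to 75.7 TPM, Selplg (PSGL-1) fell from 398 to 194 TPM, and Itgb1, an integrin β chain, had 309.5 and 254 TPM.

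**Figure D4:**
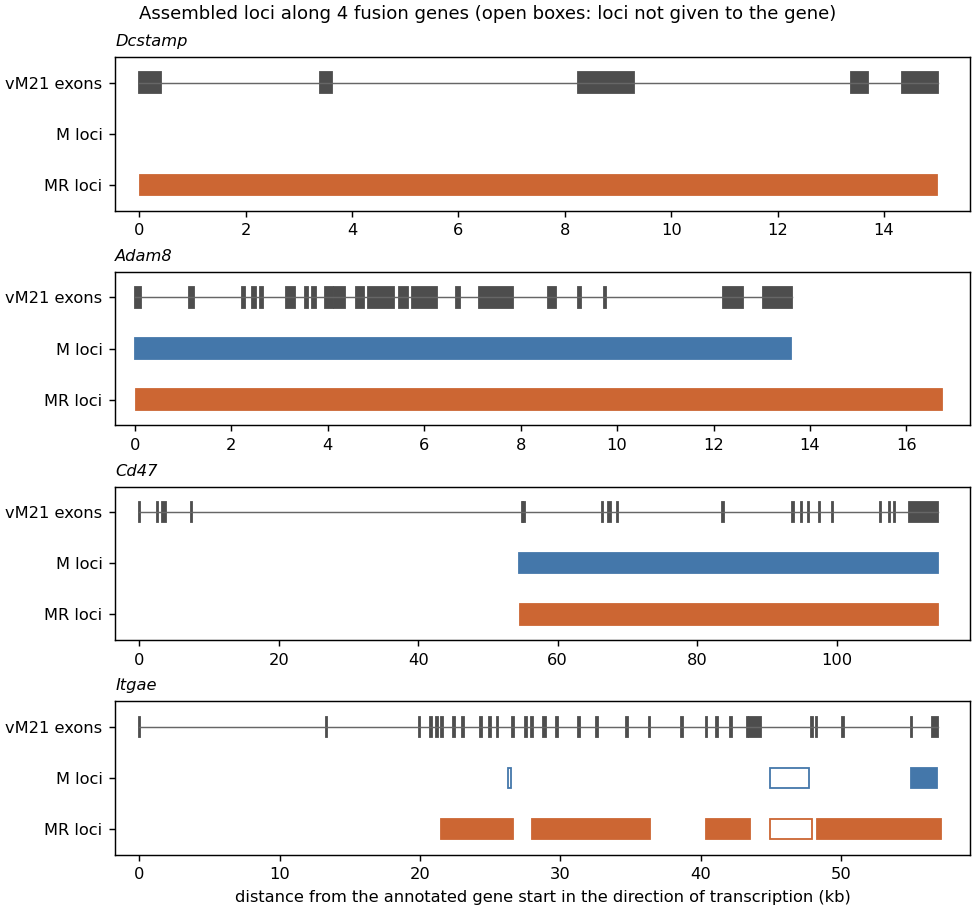
Annotated exons (grey) and assembled loci of M (blue) and MR (orange) along Dcstamp, Adam8, Cd47 and Itgae, as distance in kb from the annotated gene start in the direction of transcription. Dcstamp has no locus in M, the Adam8 locus of MR runs past the 3′ end of the gene, the Cd47 loci begin inside the gene, and Itgae is covered by separate fragments, with 1 in M and 4 in MR.

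Cd44 encodes a receptor for hyaluronan and osteopontin that mediates adhesion of macrophages. It lies at chr2:102811141-102901665 on the minus strand, with 149 TPM in M (140.2 to 158) and 160.2 TPM in MR (150.03 to 171). The ratio of MR to M was 1.08 with a counting interval of 0.985 to 1.17, which includes 1. Its read pairs were estimated with the shortest coding transcript, of 1305 nt. A longer transcript would narrow the interval, which could then leave out 1. The log2 ratio of 0.10 changed sign with median-of-ratios scaling, at -0.087, and with the mitochondrial genes and the 20 genes of highest level left out, at -0.028, so that no direction is given for Cd44. Both loci ended at the annotated 3′ end. Of 5 tested genes for ligands or partners of CD44 (Spp1, Ezr, Msn, Rdx and Hmmr), 0 rose and 0 fell. The shares of all genes tested were 21.1% and 13.0%. The hyaluronan synthase genes Has1, Has2 and Has3 had no locus or were below the filter and were not tested. Spp1 (osteopontin) had 2076 TPM in M and 1369 in MR. The ERM proteins that link CD44 to actin had 553 and 508 TPM for Msn, 34.1 and 56.4 for Ezr, and 38.9 and 55.4 for Rdx.

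Itgae encodes the integrin αE chain (CD103), known from T cells and dendritic cells of epithelia, at chr11:73090583-73147446 on the plus strand. In M it had 1 locus of 1.47 TPM (0.401 to 3.77) with 9.58% of its exon bases, and in MR 4 loci that sum to 8.59 TPM (5.75 to 12.3) with 62.4% of them. The ratio of the sums was 5.83 (2.14 to 15.9) and rests on an estimated 3.62 read pairs in M against 28.7 in MR. The MR loci are fragments along 1 gene, so that their sum adds the levels of parts of the same transcript. With the locus of the highest TPM alone, 1.47 TPM in M and 3.06 in MR, the log2 ratio was 0.72 in place of 1.96. With a mean over loci weighted by exon bases, an alternative chosen after seeing the data, it was 0.41, and Itgae did not rise under either.

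Itgae was thus the lowest of the 9 genes with a locus in MR, and its rise rests on few reads. Of 8 markers of T and NK cells, Cd3e, Cd3d, Cd3g and Cd8a had no locus in either library, and the list summed to 16.8 TPM in M and 12.7 in MR. Cd4 made up 13.0 and 9.82 TPM of these sums. Trac had no locus in M and 2.88 TPM in MR, whereas Cd8b1 (1.97 TPM) and Nkg7 (1.77 TPM) had a locus in M alone. The 7 dendritic cell markers summed to 13.7 TPM in M and 11.95 in MR, and none of them was above 5.53 TPM in MR. Zbtb46 rose from 0.765 to 2.75 TPM, and Ccr7 fell from 2.61 TPM to no locus. The part of T, NK and dendritic cells in the Itgae values was not tested. Itgb7, which encodes the integrin β7 chain that pairs with αE, rose from 26.3 TPM in M to 123.5 in MR, and Cdh1 (E-cadherin), the ligand of this integrin, had 1.84 and 2.06 TPM.

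In M the order of levels was Sirpa and Adam8, then Cd47, Cd44, Cd9 and Cd81, and far below them Itgae. In MR it was Sirpa, Cd9, Dcstamp, Adam8, Ocstamp, Cd44, Cd47, Cd81 and Itgae. The counting intervals of neighbours overlapped for Sirpa with Adam8 and for Cd9 with Cd81, both in M, and for no neighbours in MR. These orders are in TPM, and the place of Adam8, whose MR locus was shared, depended on the unit. In listed coverage per aligned Gb it came after Ocstamp and Cd44 in MR (37.2 against 89.8 and 71.2). In M it was at 226 against 389 for Sirpa in that unit. The spread between cultures of the same kind is not known.

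Further genes with a described part in precursor or macrophage fusion were set beside the 10. Of 30 such genes 27 were tested. Of these, 11 (40.7%) rose and 9 (33.3%) fell, against 21.1% and 13.0% of all genes tested. The median log2 ratio of the list was -0.28, and 0.056 in coverage per aligned Gb. The highest ratios were those of Mmp9, a gelatinase, with 11.4 TPM in M and 5159 in MR, Atp6v0d2, a proton pump subunit needed for fusion, with 4.25 and 965, and Mst1r, a receptor kinase, with 2.98 and 148. The lowest were those of Ccl2, a monocyte chemokine, with 867 and 25.1, Cd36, a scavenger receptor, with 513 and 49.0, and Trem2, an ITAM-coupled receptor, with 817 and 139.8. Members of this list also moved both ways, and the osteoclast marker list shares Mmp9, Atp6v0d2 and Itgb3 with it.

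Transcription factors described as regulators of Dcstamp, Ocstamp or osteoclast differentiation were read in the same way. Of 16 genes, all tested, 5 (31.25%) rose and 4 (25%) fell, with a median log2 ratio of 0.41. Over all genes tested the shares were 21.1% and 13.0% and the median was 0.21. Prdm1, which encodes the repressor Blimp1, rose from 3.96 to 82.7 TPM, Nfatc1, the master regulator of osteoclasts, from 25.5 to 325, and Fos, an AP-1 subunit, from 55.0 to 211. In coverage per aligned Gb only Prdm1 and Nfatc1 of the list rose, with log2 ratios of 3.63 and 2.37, and Fos was at 0.66. Irf8, which is known to hold back osteoclast genes, fell from 155 to 25.2 TPM, and Cebpa, a myeloid factor, from 160.2 to 41.9.

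**Figure D5:**
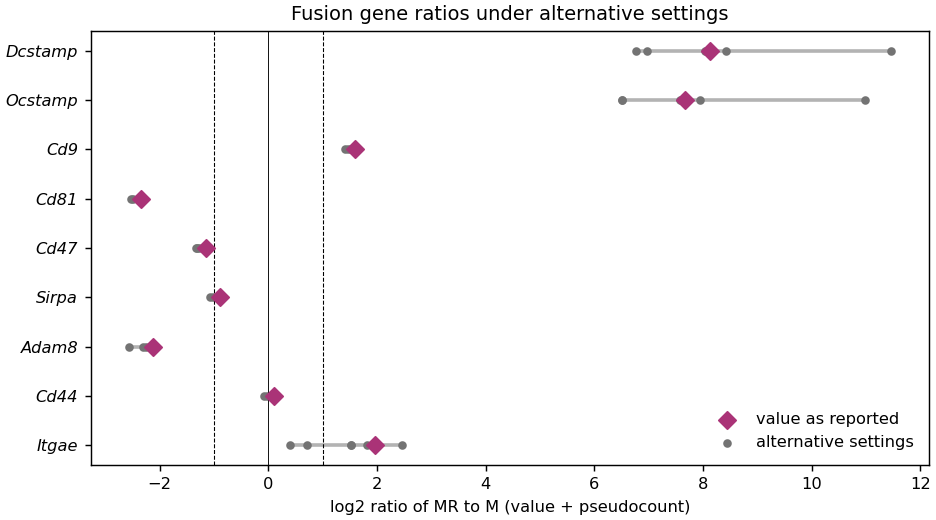
Log2 ratio of MR to M for the 9 fusion genes with a locus, as reported (diamonds) and under each alternative setting (dots), with grey bars over the range and dashed lines at 1 and -1. Cd81, Cd47 and Adam8 stay below -1 and Cd9 above 1, Sirpa crosses -1, Cd44 crosses 0 and Itgae crosses 1.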

How the data were processed

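The authors prepared each library from total RNA, cleaned the paired reads with Trim Galore, mapped them to mm10 by HISAT2 and ran StringTie with GENCODE vM27. Tool versions are not given in the sources used here. The deposited tables list a coverage signal (read depth per base), an FPKM and a TPM for each entry, with no read counts. The authors' TPM of the assembled loci alone sum to 1000000 per library, and entries with gene names, which hold GRCm39 positions, were not used here.

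Of 19422 loci in M and 19922 in MR, 15665 and 16523 were assigned, each to the GENCODE vM21 (GRCm38) gene whose exons it overlapped most (minimum 50 bases, strand not opposite). Where 50% or more of a second coding gene's exon bases fell in it, the locus was called shared. TPM was summed per gene. Aligned bases were taken as the value of coverage divided by FPKM that occurred most often. Among entries with an FPKM above 5, 37.6% in M and 40.3% in MR had this value. Read pairs were estimated from FPKM, these bases, 300 bases per pair and the shortest coding transcript of at least 1000 nt, or for Itgae the exon bases in the loci. Counting intervals are at 95%, Wilson for ratios and exact Poisson for levels. Named genes are the 10 fusion genes and, per list, the 3 highest and 3 lowest ratios with a TPM of at least 10, plus partners at this level, and 1 gene that this rule names is not reported here. The genes, lists and rules were chosen with earlier results of these data known. The assignment was tested on simulated data with 1 locus per gene, placed near its annotated ends. Fragmented loci, loci that run into a neighbour and missing loci were not simulated, so that the test does not cover them. Alternatives changed the added constant, filter, unit, scaling, assignment or threshold. Software was Python 3.11.15 with matplotlib 3.10.9, scipy 1.17.1, pandas 2.3.3 and numpy 2.4.6.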

Additional observations from a re-analysis of the deposited data

Results flagged for a closer look

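A locus on the plus strand inside Cd9, which is itself on the minus strand, was assembled in MR with a TPM of 0.323 and given to no gene, and no locus overlapped it on that strand in M. It was picked out because it lies outside the values compared above and has no counterpart in the culture without RANKL. Its listed coverage of 0.429 is under 1 read per base. The library kit does not mark the strand, so that reads of this locus cannot be told apart from reads of Cd9.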

How the results depend on the processing

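With 1 library per condition, leaving out a replicate was not possible. No paired analysis was possible because each condition has 1 library. A log2 ratio was counted as moved when it differed from the reported value by more than the width of its counting interval on that side (a 1.5-fold change for Dcstamp, Ocstamp and the median over all genes), a list median when it left the 95% order-statistic interval of its genes, and a count when it differed by a factor above 1.5. Of 332 values under alternatives 296 stayed within these bounds, 34 moved with their sign kept and 2 left them with a change of sign, both of them for Cd44, at -0.087 with median-of-ratios scaling and at -0.028 when the mitochondrial genes and the 20 genes of highest level were left out. Another 7 list medians changed sign within these bounds. That of the fusion genes was -0.087 and -0.028 under the same scalings and -0.39 under a filter of 10 TPM or with an unshared locus required in both libraries, that of the other fusion genes was 0.056 with coverage per aligned Gb, and that of the other tetraspanins was -0.18 and -0.14 under the same filter and requirement. Over all alternatives the log2 ratio ranged from 6.76 to 11.45 for Dcstamp, 6.50 to 10.98 for Ocstamp, 1.40 to 1.64 for Cd9, -2.53 to -2.28 for Cd81, -1.34 to -1.15 for Cd47, -2.57 to -2.12 for Adam8 and 0.41 to 2.47 for Itgae. Median-of-ratios scaling lowered the median over all genes from 0.21 to 0.03, and the 3 genes that fell and Cd9 stayed past the limits under it.

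The 4 fusion genes that rose became 3 with the highest locus alone, the weighted mean or a filter of 10 TPM, the 3 that fell became 4 with both scalings, and those that rose became 2 when an unshared locus was required in M and in MR, and 2 with a log2 threshold of 2. The 2821 rising and 1746 falling genes became 1589 and 973 under a filter of 10 TPM, 1791 and 1102 with an unshared locus required in both, and 934 and 502 with a threshold of 2, which admit fewer genes by construction. The 7 other tetraspanins that rose became 3 under a filter of 10 TPM, 4 with FPKM, 4 with coverage per aligned Gb, 3 with an unshared locus required in both and 3 with a threshold of 2. The 5 regulators that rose became 2 with coverage per aligned Gb, for which the cause was not tested. With a threshold of 2, the other fusion genes that fell became 5, the regulators 2 that rose and 2 that fell, and the other ADAM genes that fell 0. Requiring an unshared locus in both libraries leaves no value for Dcstamp, Ocstamp and Adam8, and the filter of 10 TPM leaves none for Itgae.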

Other observations

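Within Itgae, a locus from 73135495 to 73138265 on chromosome 11 was assembled on the plus strand in M, with 6.22 TPM and 0 Itgae exon bases, and was given to no gene. In MR a locus from 73135493 to 73138500 was assembled on the minus strand with 3.88 TPM and was given to Haspin, a gene on the minus strand inside Itgae. The positions are nearly the same, and the M locus also lies within the annotated extent of Haspin. The listed strands differ, but the library kit does not mark the strand, so that no change of strand is read from them. Both values were left out of the Itgae levels above. Within Cd9, a plus-strand locus given to Gm28809 had 5.82 TPM in M, and no locus was given to that gene within Cd9 in MR. The same limit on the strand holds for this locus.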
